A study of Mus musculus with 12 samples.

Results

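Small heat shock proteins and their co-chaperone Bag3 were followed in mouse embryonic fibroblasts that lacked or carried GADD34, with and without arsenite. The members were the 5 genes Hspb1, Hspb2, Hspb8, Cryab and Bag3 of 20753 genes measured by a probe set with a single gene symbol. They were taken as every probe set of the full deposited table whose symbol is one of these names, which gave 10 of 45037 probe sets that are not array controls: 2 of Hspb1, 1 of Hspb2, 3 of Hspb8, 3 of Cryab and 1 of Bag3. All 10 were tested, and no probe set of these genes was left out for its values. The 5 genes themselves were chosen with earlier results of these data known.

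RNA of 12 cultures was read on Affymetrix Mouse430_2 arrays, 3 in each of 4 groups. The groups were GADD34 knockout (KO) cells given 0.1 mM sodium arsenite for 2 h, KO cells left untreated, wild-type (WT) cells given the same arsenite, and WT cells left untreated. GADD34, the product of Ppp1r15a, is the stress-induced subunit that directs a phosphatase to the translation factor eIF2. Every culture, WT included, was of fibroblasts that SV40 large T antigen had immortalised, from embryos of day 12.5 to 14.5, and the strain entry, the same for all arrays, names B6.129P2, the allele Ppp1r15A tm1.1.Ajf/Mmnc and C57Bl/6. The sources used here do not say whether each genotype is 1 clone or line, so GADD34 loss cannot be told apart from other ways in which the cell populations differ. The study ran 3 replicate experiments with all 4 groups in each, called experiments 1, 2 and 3 here.

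Small heat shock proteins share an alpha-crystallin domain, assemble into oligomers and hold unfolding proteins in a state from which other chaperones can refold them, without using ATP. BAG3 binds HSP70 through its BAG domain and binds small heat shock proteins, HSPB8 above all, and it links their cargo to selective autophagy. Hspb1, Cryab, Hspb8 and Bag3 are known targets of the heat shock factor HSF1, which binds inverted repeats of GAA in promoters. Arsenite reacts with protein thiols and is a classical inducer of this response.

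Upstream sequences are shown for the genes with a probe set that passed the test in arsenite-treated cells. RefSeq promoters (build GRCm38.p6) matched 3 of the 5 members, and Cryab and Hspb2 are named only. Each line gives the 250 bases before the annotated start, 5′ to 3′ on the strand of the gene. GAANNTTC, 1 inverted pair of the GAA that HSF1 recognises, is in capitals. Hspb1 lies at chr5:135887669-135887918 on the + strand, Hspb8 at chr5:116422865-116423114 on the - strand and Bag3 at chr7:128523333-128523582 on the + strand.
Hspb1: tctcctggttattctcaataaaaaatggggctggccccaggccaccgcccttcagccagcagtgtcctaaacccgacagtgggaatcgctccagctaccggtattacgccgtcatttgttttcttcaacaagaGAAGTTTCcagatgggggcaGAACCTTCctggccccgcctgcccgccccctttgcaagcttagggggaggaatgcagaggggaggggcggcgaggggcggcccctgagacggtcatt
Hspb8: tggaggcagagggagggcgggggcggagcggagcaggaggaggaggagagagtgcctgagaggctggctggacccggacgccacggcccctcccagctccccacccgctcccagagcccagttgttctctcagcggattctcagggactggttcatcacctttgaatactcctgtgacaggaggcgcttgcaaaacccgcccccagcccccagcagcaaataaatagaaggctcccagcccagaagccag
Bag3: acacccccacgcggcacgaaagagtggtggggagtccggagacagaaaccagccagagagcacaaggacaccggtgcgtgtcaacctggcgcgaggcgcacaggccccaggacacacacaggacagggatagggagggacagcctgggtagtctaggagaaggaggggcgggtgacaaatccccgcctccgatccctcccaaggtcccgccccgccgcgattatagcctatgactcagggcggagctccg
Both motifs searched, GAANNTTC and TTCNNGAA, read the same on both strands. Hspb1 held 2 separate matches upstream, GAAGTTTC with its first base 117 bases before the start and GAACCTTC with its first base 97 bases before it. The upstream sequences of Hspb8 and Bag3 held none. In the 300-base window that also takes in the first bases after the start, each of these had GAAGTTTC, with its first base at position 3 for Hspb8 and at position 43 for Bag3, counting the first base after the upstream stretch as 1. None of the 3 windows held TTCNNGAA. Of 32851 promoters in the table, 6.69% held GAANNTTC and 7.17% TTCNNGAA upstream, and 7.86% and 8.52% held them in the 300-base window. A match is a run of letters and was not tested as a binding site.

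Values are log2 signals after RMA, the normalisation and probe set summary that the submitters' processing notes name. Differences are on this log2 scale, ± the SE of limma's moderated fit to 3 arrays in each group. A Benjamini-Hochberg adjustment over the 45037 probe sets gave the adjusted p, and the threshold was 0.05. Signals of different probe sets are not comparable, so levels are compared between arrays within a probe set only. A probe set was called dim under 5.34, the 40th percentile of all array values. Array medians lay between 5.92 and 5.96, and the excess of 3′ over 5′ log2 signal of Actb, which grows as RNA degrades, averaged 0.314 in KO arsenite, 0.363 in KO untreated, 0.256 in WT arsenite and 0.325 in WT untreated arrays. Of 11 fibroblast markers 9 or 10 were at or above 5.34 in each group. So were 5 of 5 smooth muscle, 5 of 5 neural and 3 of 5 epithelial markers. At most 1 of 4 endothelial and 1 of 4 blood and macrophage markers reached it. This limit lies under the array medians, so a count at or above it does not by itself show expression. Some markers differed widely between untreated KO and WT cells: Col1a2 by 4.32, Thy1 by -2.18 and the smooth muscle marker Cnn1 by -4.30 on the log2 scale (limma adjusted p = 1.92e-07, 9.57e-08 and 6.87e-05). Most markers of both lists did not pass in this comparison. Of 11 fibroblast markers 1 was higher and 1 lower in untreated KO cells. Of 5 smooth muscle markers also 1 was higher and 1 lower, with Smtn the higher one (0.40, limma adjusted p = 0.0154). Over all genes 9.25% were higher and 9.76% lower. The part of the markers in the member differences between KO and WT cells was not tested. The signal of Ppp1r15a averaged 6.29 ± 0.41 in KO arsenite and 6.32 ± 0.11 in KO untreated cells, against 12.03 ± 0.37 in WT arsenite and 8.63 ± 0.22 in WT untreated cells (SD, n = 3 each). The sources used here do not say whether its 1 probe set lies in the deleted part of the gene.

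Arsenite raised Hspb1, Bag3 and 2 of 3 Hspb8 probe sets in KO cells. In WT cells Bag3 rose, 1 of 3 Hspb8 probe sets rose, and Hspb1 rose when the replicate experiment was taken into account. Cryab and Hspb2 did not pass in either cell type. Of the 10 probe sets 5 rose and 0 fell in KO cells, against 3.21% that rose and 4.31% that fell among all probe sets. In WT cells 2 rose and 0 fell, against 1.52% and 0.642% of all. With the experiment as a block 4 rose in WT cells, against 2.90% of all.

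**Figure D1:**
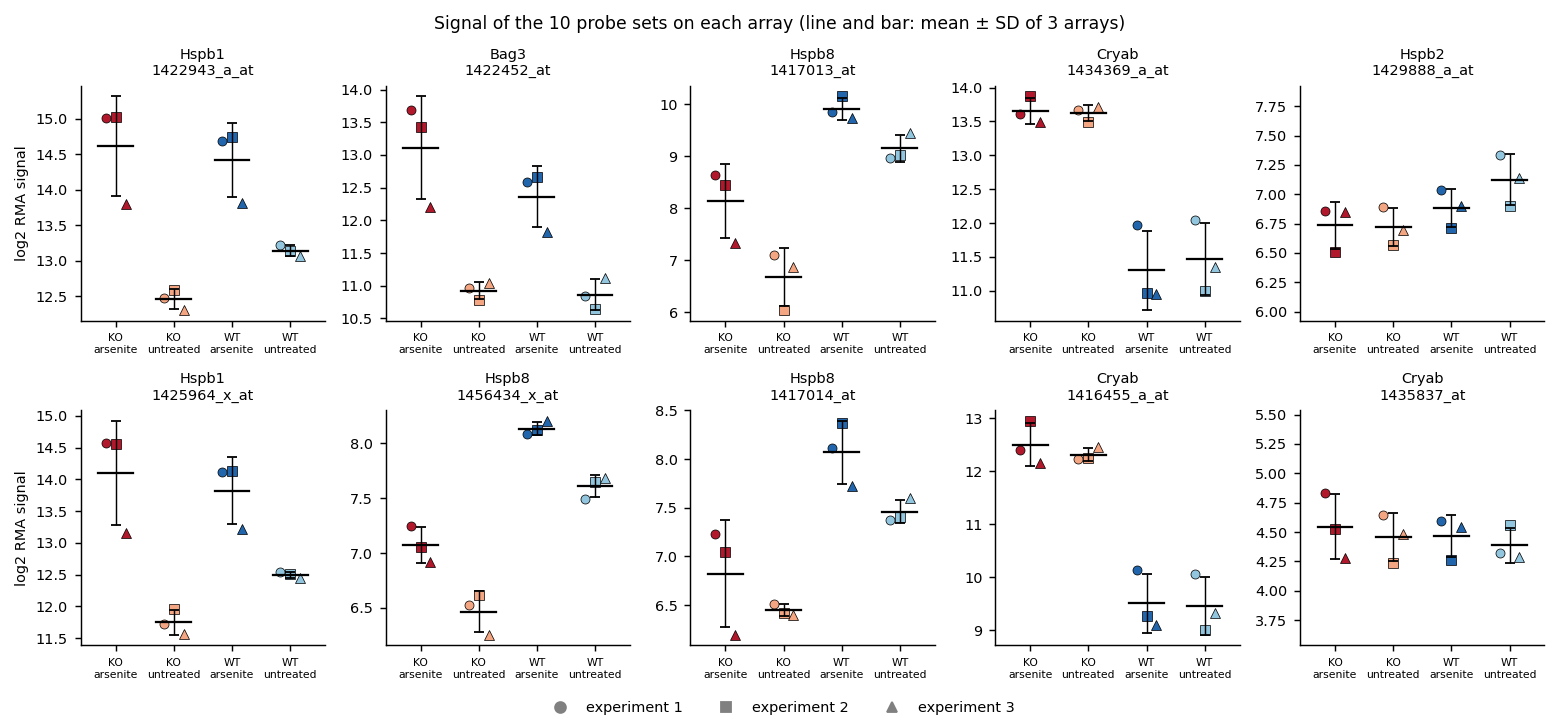
Log2 RMA signal (vertical axis) of the 10 probe sets on each array, by group, with the mean ± SD of 3 arrays as line and bar and a symbol for each experiment. Axes do not start at 0 and differ between panels. Hspb1 and Bag3 were high in both arsenite groups, Cryab 1434369_a_at and 1416455_a_at were high in both KO groups, and Hspb8 was high in both WT groups.

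Hspb1 encodes HSP27 (HSP25 in the mouse), a chaperone and actin regulator that stress kinases phosphorylate. In KO cells its brighter probe set, 1422943_a_at, gave 15.01, 15.03 and 13.80 under arsenite in experiments 1, 2 and 3, against 12.47, 12.59 and 12.30 untreated. In WT cells it gave 14.69, 14.75 and 13.81 under arsenite, against 13.23, 13.13 and 13.07 untreated. Every arsenite array lay above every untreated array, and experiment 3 was the lowest in both arsenite groups. The rise was 2.16 ± 0.31 in KO cells (limma adjusted p = 0.00172), which is 4.47-fold. In WT cells the difference was 1.27 ± 0.31, which did not pass (limma adjusted p = 0.0659) but did with the replicate block (limma adjusted p = 0.00519). It also passed without WT arsenite replicate 3 (limma adjusted p = 0.0265) or without KO arsenite replicate 3, which bears on the shared spread (limma adjusted p = 0.00896). The other probe set, 1425964_x_at, followed it over the 12 arrays (Pearson's r = 0.999) and gave 2.35 ± 0.35 in KO cells (limma adjusted p = 0.00193) and 1.33 ± 0.35 in WT cells (limma adjusted p = 0.0859, and 0.00847 with the block). Signals of Hspb1 1422943_a_at came within 0.051 of the highest value on 1 KO arsenite array and within 0.355 on 1 WT arsenite array. Whether the upper end of the array range held down its arsenite signals, and so the comparisons that use them, was not tested.

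Untreated KO cells had less Hspb1 signal than untreated WT cells on all 3 arrays of each group, with no overlap. The difference was -0.69 ± 0.31 and did not pass (limma adjusted p = 0.181), whereas it passed with the replicate block (limma adjusted p = 0.0321) and without KO arsenite replicate 3 (limma adjusted p = 0.0451). The second probe set gave -0.75 ± 0.35 (limma adjusted p = 0.193, 0.0397 with the block, and 0.0357 without KO arsenite replicate 3). Under arsenite the 2 cell types overlapped, with a difference of 0.20 ± 0.31 (limma adjusted p = 0.762). In the order of levels, KO untreated was lowest, then WT untreated, then WT arsenite and KO arsenite, and only the top 2 groups overlapped.

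Bag3 encodes the co-chaperone itself. In KO cells its probe set gave 13.68, 13.43 and 12.21 under arsenite, against 10.96, 10.77 and 11.03 untreated. In WT cells it gave 12.59, 12.67 and 11.82 under arsenite, against 10.84, 10.64 and 11.11 untreated. Arsenite and untreated arrays did not overlap in either cell type, and experiment 3 again had the lowest arsenite signal. Bag3 rose by 2.18 ± 0.33 in KO cells, 4.54-fold (limma adjusted p = 0.00233), and by 1.50 ± 0.33 in WT cells, 2.82-fold (limma adjusted p = 0.0419, and 0.0178 with the block). The call in WT cells was lost when any 1 of 8 arrays was left out. It was lost without WT arsenite replicate 1 (limma adjusted p = 0.176) or 2 (limma adjusted p = 0.188). It was lost without WT untreated replicate 1 (limma adjusted p = 0.134), 2 (limma adjusted p = 0.159) or 3 (limma adjusted p = 0.0854). It was lost without KO untreated replicate 1 (limma adjusted p = 0.06), 2 (limma adjusted p = 0.0539) or 3 (limma adjusted p = 0.0617). Without arsenite KO and WT cells overlapped (0.06 ± 0.33, limma adjusted p = 0.946). Under arsenite the difference of 0.75 ± 0.33 did not pass (limma adjusted p = 0.171), but without KO arsenite replicate 3 it was 1.20 (limma adjusted p = 0.0058).

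Hspb8 encodes HSP22, the small heat shock protein that forms a stable complex with BAG3. Its signal was lower in KO cells and rose in part under arsenite. In KO cells the brightest of its probe sets, 1417013_at, gave 8.65, 8.45 and 7.33 under arsenite, against 7.10, 6.04 and 6.87 untreated. In WT cells it gave 9.86, 10.15 and 9.73 under arsenite, against 8.97, 9.02 and 9.45 untreated. The 4 groups did not overlap, and even the highest KO arsenite array lay below the lowest WT untreated array. KO less WT came to -2.48 ± 0.34 without arsenite, 5.57-fold lower in KO (limma adjusted p = 0.000388), and to -1.77 ± 0.34 with it, 3.41-fold lower (limma adjusted p = 0.0033). The other sets, 1456434_x_at and 1417014_at, were also lower in KO cells, by -1.14 ± 0.12 and -1.02 ± 0.23 untreated (limma adjusted p = 4.91e-05 and 0.0105) and by -1.06 ± 0.12 and -1.25 ± 0.23 under arsenite (limma adjusted p = 8.31e-05 and 0.00299). The untreated call of 1417014_at was lost without experiment 1 (limma adjusted p = 0.0751) or experiment 2 (limma adjusted p = 0.0761). The 3 sets correlated at 0.926 to 0.945 over the 12 arrays, a description of arrays that share groups. Their untreated KO means were low, at 6.67, 6.47 and 6.45. The array medians were 5.92 to 5.96, and Ppp1r15a averaged 6.32 in untreated KO cells. How far background signal limits the Hspb8 folds was not tested.

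The arsenite response of Hspb8 depended on the probe set. In KO cells 1417013_at rose by 1.47 ± 0.34 (limma adjusted p = 0.02) and 1456434_x_at by 0.61 ± 0.12 (limma adjusted p = 0.00853), while 1417014_at gave 0.38 ± 0.23 (limma adjusted p = 0.395, and 0.0248 without KO arsenite replicate 3). The call of 1417013_at was lost without KO arsenite replicate 1 (limma adjusted p = 0.082), KO arsenite replicate 2 (limma adjusted p = 0.0732) or KO untreated replicate 2 (limma adjusted p = 0.0677). From the KO arrays alone neither 1417013_at nor 1456434_x_at passed (limma adjusted p = 0.122 and 0.0752). In WT cells 1417013_at gave 0.77 ± 0.34 (limma adjusted p = 0.38, and 0.0478 from the WT arrays alone) and 1417014_at 0.61 ± 0.23 (limma adjusted p = 0.287). In the fit to all 12 arrays only 1456434_x_at passed in WT cells, at 0.52 ± 0.12 (limma adjusted p = 0.0425). Its adjusted p was above 0.05 without any 1 of 8 arrays (limma adjusted p = 0.0543 without KO arsenite replicate 2, 0.0592 without KO untreated replicate 1, 0.115, 0.137 and 0.126 without WT arsenite replicates 1, 2 and 3, and 0.166, 0.111 and 0.0891 without WT untreated replicates 1, 2 and 3).

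Cryab encodes alpha-B crystallin, a small heat shock protein abundant in lens and muscle. In KO cells 1434369_a_at gave 13.61, 13.87 and 13.49 under arsenite and 13.66, 13.49 and 13.71 untreated. In WT cells it gave 11.97, 10.97 and 10.95 under arsenite and 12.04, 10.996 and 11.36 untreated. Every KO array lay above every WT array, and arsenite and untreated arrays overlapped in both cell types. Cryab was higher in KO cells by 2.16 ± 0.29 untreated, 4.46-fold (limma adjusted p = 0.000346), and by 2.35 ± 0.29 under arsenite, 5.11-fold (limma adjusted p = 0.000179). The arsenite differences were 0.03 ± 0.29 in KO cells (95% interval -0.60 to 0.66, limma adjusted p = 0.962) and -0.16 ± 0.29 in WT cells (-0.79 to 0.47, limma adjusted p = 0.901).

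A second Cryab set, 1416455_a_at, tracked the first (Pearson's r = 0.994, n = 12 arrays). In KO cells it gave 12.39, 12.94 and 12.16 under arsenite and 12.23, 12.24 and 12.45 untreated, and in WT cells 10.14, 9.27 and 9.09 under arsenite and 10.05, 8.99 and 9.32 untreated. The KO excess was 2.85 ± 0.31 untreated (limma adjusted p = 7.48e-05). It was 2.997 ± 0.31 under arsenite (limma adjusted p = 5.23e-05). The third set, 1435837_at, averaged 4.39 to 4.55 in the 4 groups, under the dim limit, and passed in no comparison. Muscle and lens markers were set beside this result because both tissues are rich in Cryab. Of 12 skeletal and cardiac muscle markers 6 were at or above 5.34 in KO untreated and 7 in WT untreated cells, and the log2 of their summed signal ran from 9.90 to 11.42 in KO untreated and from 9.72 to 10.35 in WT untreated cells. The 6 lens markers summed to 8.19 to 8.34 in KO untreated and 8.15 to 8.26 in WT untreated cells, with 3 and 2 of them at or above 5.34. Of the muscle list 1 marker was lower and 0 were higher in untreated KO cells (2 and 1 with the block), and of the lens list 0 passed in limma (1 with the block, and 2 at an unadjusted p under 0.05). Their part in the Cryab difference was not tested.

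Hspb2 lies beside Cryab on chromosome 9 and is best known from heart and skeletal muscle. In KO cells it gave 6.85, 6.51 and 6.85 under arsenite and 6.89, 6.57 and 6.70 untreated. In WT cells it gave 7.03, 6.71 and 6.90 under arsenite and 7.33, 6.90 and 7.14 untreated. Both KO groups lay below the WT untreated arrays without overlap, and each overlapped the WT arsenite arrays. The untreated difference of -0.41 ± 0.14 did not pass (limma adjusted p = 0.0827) but did with the replicate block (limma adjusted p = 0.00293) and without WT untreated replicate 2 (limma adjusted p = 0.0496). Under arsenite it was -0.15 ± 0.14 (limma adjusted p = 0.59). Arsenite gave 0.02 ± 0.14 in KO cells (limma adjusted p = 0.96) and -0.24 ± 0.14 in WT cells (limma adjusted p = 0.571).

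Between untreated KO and WT cells 2 member probe sets were thus higher, both of Cryab, and 3 lower, all of Hspb8, against 7.82% higher and 8.17% lower among all probe sets. With the replicate block the 2 Hspb1 sets and the Hspb2 set joined the lower ones, which made 6, against 12.1% of all. Under arsenite the same 2 sets of Cryab were higher and the same 3 of Hspb8 lower, against 7.60% and 9.43% of all. Many genes differed between these cell populations, and in arrays of whole cultures fewer cells expressing a gene and less RNA per cell cannot be told apart.

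**Figure D2:**
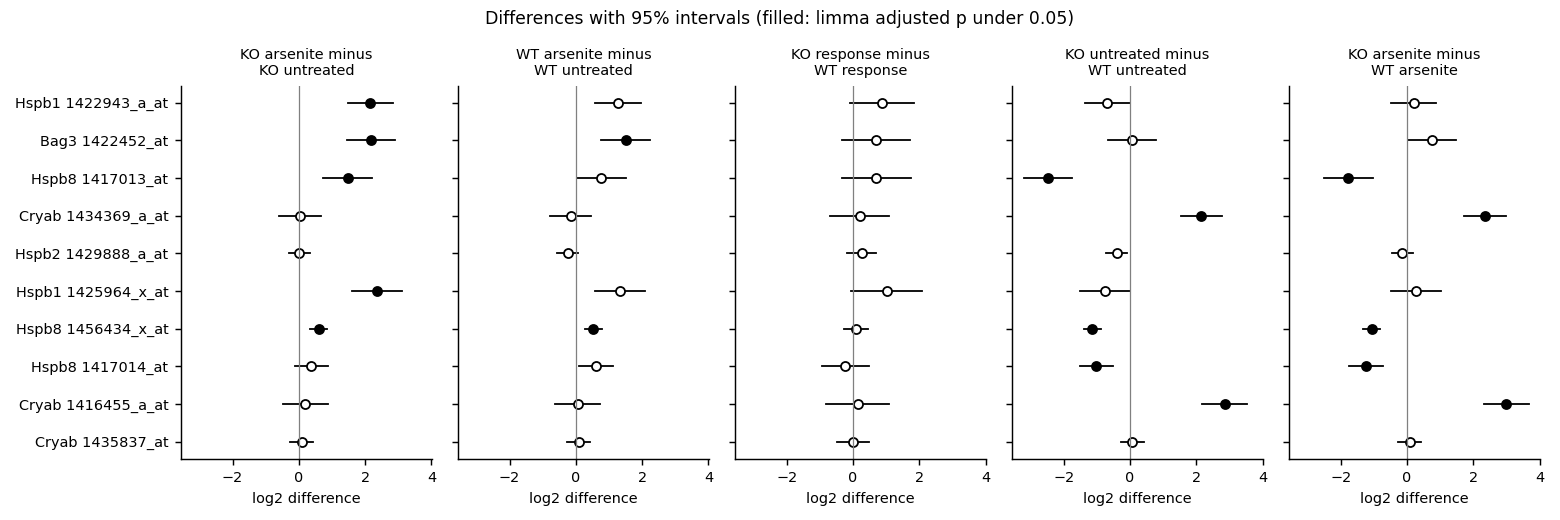
Log2 differences (horizontal axis) of the 10 probe sets in the 5 comparisons, with 95% intervals, filled where the limma adjusted p is under 0.05. Arsenite differences were positive for Hspb1, Bag3 and Hspb8, no member passed for the difference of responses, and the KO minus WT differences were positive for 2 Cryab sets and negative for Hspb8.

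The difference of responses asks whether arsenite changed the members by another amount in KO than in WT cells. No member passed, against 0.0111% of all probe sets with a larger and 0.00666% with a smaller KO response (5 and 3 probe sets, 6 and 1 with quantile normalisation again, and 3 and 1 with median centring). At an unadjusted p under 0.05 the count of members was also 0 without a block, against 2650 of all 45037 probe sets. With the replicate block it was 3, the 2 Hspb1 sets and Hspb2, against 4290 of all. For Hspb1 the KO response exceeded the WT response by 0.89 ± 0.44 (95% interval -0.08 to 1.85, limma adjusted p = 0.891). With the replicate block that interval was 0.24 to 1.53 (limma adjusted p = 0.314), above 0 when unadjusted but not past the adjusted threshold. For Bag3 it did by 0.69 ± 0.47 (-0.34 to 1.72, limma adjusted p = 0.998), and for Hspb8 1417013_at by 0.71 ± 0.47 (-0.33 to 1.75, limma adjusted p = 0.998). The sign of each was the same in 3 of 3 experiments, with the excess of Hspb1 at 1.09, 0.82 and 0.75 and that of Bag3 at 0.97, 0.63 and 0.47. The other Hspb8 sets gave 0.08 ± 0.17 and -0.23 ± 0.33. Without the block the intervals of Hspb1, Bag3 and Hspb8 1417013_at take in both no difference and an excess above 1, and with it those of Bag3 (-0.26 to 1.63) and of this Hspb8 set (-0.34 to 1.75) do too.

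For Hspb1, Bag3 and Hspb8 1417013_at the response was smallest in experiment 3, while for Hspb8 1456434_x_at it was smallest in experiment 2. Hspb1 1422943_a_at responded by 2.55, 2.44 and 1.49 in KO cells and by 1.46, 1.61 and 0.75 in WT cells of experiments 1, 2 and 3. Bag3 responded by 2.72, 2.65 and 1.17 in KO cells and by 1.76, 2.02 and 0.71 in WT cells. Hspb8 1417013_at responded by 1.55, 2.41 and 0.46 in KO cells and by 0.89, 1.12 and 0.29 in WT cells. In these 3 the third value is the lowest. Hspb8 1456434_x_at responded by 0.72, 0.43 and 0.67 in KO cells and by 0.59, 0.47 and 0.52 in WT cells, the lowest in experiment 2 in both cell types. The third value was also the lowest for Hsph1, an HSP110 chaperone, at 3.26, 2.75 and 1.24 in KO cells and 2.28, 2.02 and 0.48 in WT cells. Ppp1r15a responded by 3.79, 3.69 and 2.72 in WT cells. With 2 experiments only, 0 member probe sets passed limma's adjusted threshold in KO cells without experiment 1 or without experiment 2. Over all 45037 probe sets 495 and 1033 passed there. At an unadjusted p under 0.05 there were 5 members each, against 6105 and 6851 of all. Without experiment 3, 6 members and 2365 of all passed. In WT cells 0 members passed without experiment 1 or without experiment 2, against 130 and 195 of all. At an unadjusted p under 0.05 there were 4 members each, against 3484 and 3910 of all. Without experiment 3, 4 members and 496 of all passed in WT cells. For the difference of responses 0 members and 2 of all passed without experiment 3. At an unadjusted p under 0.05 these were 3 members and 2651 of all.

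**Figure D3:**
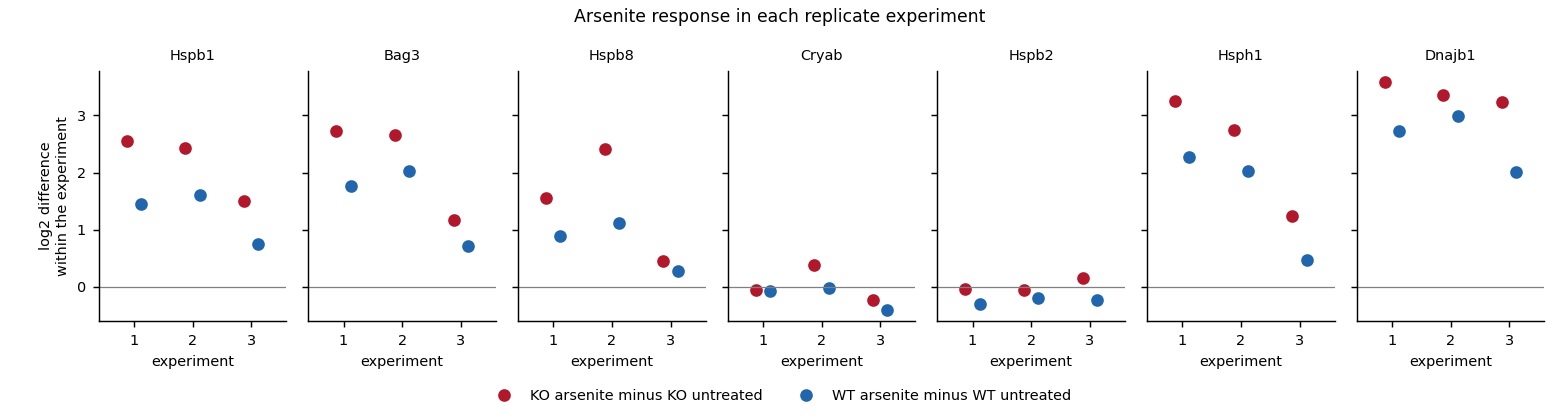
Arsenite minus untreated log2 signal within each replicate experiment, for the brightest probe set of each member and for Hsph1 and Dnajb1, with KO and WT cells as separate points. For Hspb1, Bag3 and Hspb8 the KO point lies above the WT point in all 3 experiments, and experiment 3 has the smallest responses of these probe sets.

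The other genes of these pathways are described by the brightest probe set of each. Of 19 other HSF1 target chaperones measured, 9 rose and 0 fell in KO cells with a median difference of 0.48, against 3.73% up, 3.77% down and a median of 0.03 over all genes. In WT cells 5 rose and 0 fell with a median of 0.29, against 1.66%, 0.472% and -0.01 over all genes. With the block 13 rose in KO cells and 7 in WT cells, against 6.42% and 3.07% of all genes. Of the co-chaperone Dnajb1, which stimulates HSP70, the rise was 3.39 ± 0.27 in KO cells (limma adjusted p = 3.67e-05) and 2.58 ± 0.27 in WT cells (limma adjusted p = 0.000587). Hsph1 rose by 2.41 ± 0.48 in KO cells (limma adjusted p = 0.0105) and gave 1.59 ± 0.48 in WT cells (limma adjusted p = 0.157, and 0.0365 with the block). Chordc1, an HSP90 co-chaperone, gave 0.87 ± 0.26 in KO cells (limma adjusted p = 0.0708, and 0.00201 with the block).

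**Figure D4:**
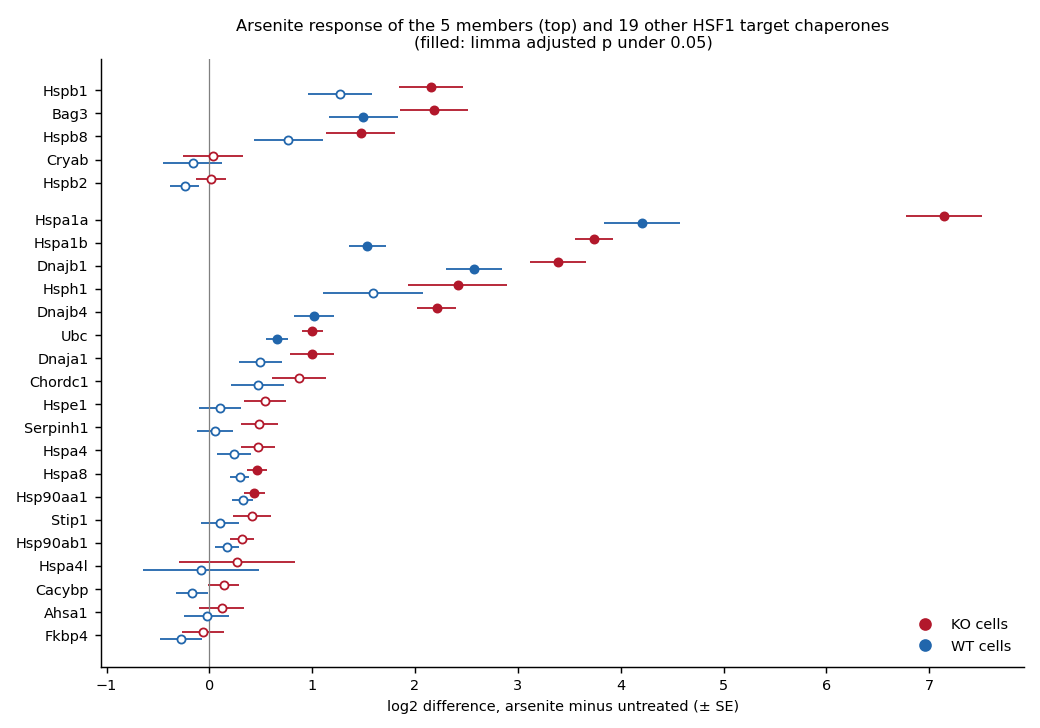
Arsenite minus untreated log2 difference ± SE (horizontal axis) in KO and WT cells for the brightest probe set of the 5 members and of 19 other HSF1 target chaperones, filled where the limma adjusted p is under 0.05. Of the chaperones 9 are filled in KO cells and 5 in WT cells, all to the right of 0.

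Among 16 partners of BAG3 in chaperone-assisted autophagy and Hippo signalling 6 rose and 3 fell in KO cells, and 3 rose and 0 fell in WT cells (4 with the block). The HSP70 genes Hspa1a and Hspa1b, which the chaperone list also holds and which may share signal because their sequences are nearly identical, rose by 7.15 ± 0.37 and 3.74 ± 0.18 in KO cells and by 4.20 ± 0.37 and 1.54 ± 0.18 in WT cells. Sqstm1, the autophagy receptor p62, rose by 1.52 ± 0.19 in KO cells (limma adjusted p = 0.00073) and 1.42 ± 0.19 in WT cells (limma adjusted p = 0.00252). Filamin C (Flnc), a client of BAG3, rose by 1.46 ± 0.20 in KO cells (limma adjusted p = 0.00121) and gave 0.59 ± 0.20 in WT cells (limma adjusted p = 0.213). Lats1, a Hippo kinase, fell by 0.85 ± 0.11 in KO cells (limma adjusted p = 0.00111). In untreated KO cells 7 of the 16 were lower and 0 higher than in WT, against 9.76% lower and 9.25% higher over all genes. Hspa1a and Hspa1b are both among these 7. Under arsenite 1 of the 16 was lower and 1 higher in KO cells, against 10.4% and 9.58% over all genes. With the block 4 were lower and 1 higher under arsenite, against 14.3% and 14.3%.

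Of 5 other BAG family genes Bag2, which inhibits the ubiquitin ligase CHIP, rose by 1.01 ± 0.17 in KO cells (limma adjusted p = 0.00387) and Bag4 fell by 0.51 ± 0.11 (limma adjusted p = 0.0167). Bag5 rose by 0.51 ± 0.11 in WT cells (limma adjusted p = 0.0353), the only 1 of these 5 to pass there. Of 6 other small heat shock family genes 0 passed under arsenite in either cell type by limma, also 0 with the block and 0 at an unadjusted p under 0.05. Of these, 3 (Hspb3, Hspb9 and Odf1) were dim in all 4 groups. Hspb6, which encodes HSP20, was lower in KO cells, with differences of -1.06 ± 0.23 untreated (limma adjusted p = 0.00818) and -0.93 ± 0.23 when both had arsenite (limma adjusted p = 0.0162). A list of 4 genes held the heat shock factors Hsf1, Hsf2 and Hsf4 and the binding protein gene Hsbp1. Of these 0 passed under arsenite by limma, with 0 at an unadjusted p under 0.05. Hsf1 and Hsf2 were lower in untreated KO cells, with differences of -0.48 ± 0.13 and -0.88 ± 0.21 (limma adjusted p = 0.0229 and 0.0132). Of 8 kinases that act on HSPB1, directly or upstream, Map2k3 and Mapkapk5 rose in KO cells by 0.99 ± 0.17 and 0.45 ± 0.09 (limma adjusted p = 0.0053 and 0.0102), and 0 passed in WT cells (1 with the block, and 2 at an unadjusted p under 0.05).

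The genes whose signal was most like each member's over the 12 arrays were taken from 2611 genes with an SD of at least 0.5, as a description of arrays that share groups and experiments. For Hspb1 they were Zfand2a, Snx16 and Coq10b (Pearson's r = 0.977, 0.976 and 0.973). For Bag3 they were Clk4, Dnaja4 and Hsph1 (Pearson's r = 0.980, 0.976 and 0.968). Dnaja4, an HSP40 co-chaperone, averaged 11.97 in KO arsenite and 7.65 in KO untreated cells, and 9.84 in WT arsenite and 7.52 in WT untreated cells. For Hspb8 they were Pde8a, Ets2 and Msx2 (Pearson's r = 0.977, 0.969 and 0.961), for Cryab Bmyc, Ptprf and Rhobtb1 (Pearson's r = 0.988, 0.982 and 0.982) and for Hspb2 Lxn and Mef2c (Pearson's r = 0.916 and 0.904).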

How the data were processed

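RNA was measured on 12 Mouse430_2 arrays, 3 per group. The deposited values are log2 signals after RMA, per the submitters' processing notes, which give no version. The full table held 45101 probe sets, of which 64 controls were left out, and no per-array column was left unused. Its authors' mean columns matched the means of the 4 groups within 1e-06. A deposited matrix of 26382 probe sets carries sample labels, but 10 of its 12 columns hold another array's values than that sample has in the full table, so it served only as an alternative. The authors' fold differences and p-values in the full table were not used, and no source used here states their test.

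Comparisons came from limma 3.58.1 (R 4.3.3), in 1 fit of 4 groups to 12 arrays (8 residual degrees of freedom), two-sided, with Benjamini-Hochberg adjustment per comparison over 45037 probe sets and a threshold of 0.05. The fit was tested on simulated data. The p-values reflect variation among the replicate experiments, and the number of arrays limits the precision. Whether these experiments repeated 1 clone or line of each genotype is not said in the sources used here. The design text puts all 4 groups in each replicate experiment, so the numbers pair the arrays. Less their group means, 18 pairs of arrays of the same number correlated at 0.231 to 0.738, and 36 of different numbers at -0.575 to -0.011. Taking off group means makes positive values for the same number push the others below 0 on average, so the second range is not separate evidence of pairing. Values with a replicate block, which leaves 6 residual degrees of freedom, stand beside calls they change. Named genes were the members, Ppp1r15a, up to 3 past and 2 not past the threshold with the largest arsenite change in each list, and the 3 genes most like each member, of which 1 is not reported here. Flnc, Lats1, Hspb6, Hsf1 and Hsf2 were named after their values were seen. The members and lists were chosen with earlier results of these data known. Alternatives were repeated quantile normalisation, median centring, a dim filter, gene-level values, a fixed or random block, compared arrays alone, trended robust moderation, a threshold of 0.01, the labelled matrix, and leaving out arrays or, added after seeing the data, experiments.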

Additional observations from a re-analysis of the deposited data

Results flagged for a closer look

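For 2 genes described beside the members, KO and WT cells responded to arsenite by different amounts. Hspa1b, an HSP70 gene, responded more in KO cells, by 2.205 on the log2 scale (limma adjusted p = 0.0347), with an excess of 2.46, 1.91 and 2.25 in experiments 1, 2 and 3. The call held with the replicate block (limma adjusted p = 0.021) but was lost in 11 of 12 fits that left out 1 array (limma adjusted p = 0.0578 to 0.173) and passed at 0.00468 without KO arsenite replicate 3. It was also lost in 3 of 3 fits that left out an experiment (limma adjusted p = 0.104 to 1), while the excess stayed between 2.04 and 2.39. It averaged 14.34 in KO arsenite and 10.60 in KO untreated cells, and 14.43 in WT arsenite and 12.90 in WT untreated cells, so the untreated KO level was the lower one. Ppp1r15a is the gene targeted in KO cells, so a smaller response there could be foreseen from the design. Its KO signal averaged 6.29 with arsenite and 6.32 without. It responded less in KO cells, by -3.432 (limma adjusted p = 0.00749). That call was lost without WT untreated replicate 1 (limma adjusted p = 0.0522) or 2 (limma adjusted p = 0.0543), and without experiment 1 (limma adjusted p = 1) or 2 (limma adjusted p = 0.201). No member passed this test.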

How the results depend on the processing

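Of 1180 recomputed member values 1034 kept their direction and their side of the threshold, 29 newly passed, 57 no longer passed and 60 turned sign. All that turned had not passed before, except Hspb8 1417013_at for arsenite in KO cells in the labelled matrix. Among the 10 member probe sets 5 passed for arsenite in KO cells, 2 for arsenite in WT cells, 0 for the difference of responses, 5 for untreated KO against WT and 5 for KO against WT under arsenite. Among all probe sets 3385, 973, 8, 7203 and 7670 passed in the same order. Repeated quantile normalisation and the dim filter left the member counts as they were.

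With the replicate block 6481 probe sets passed for arsenite in KO cells, 2252 for arsenite in WT cells and 23 for the difference of responses, and with the random replicate block 5702, 1806 and 36. The block changed member counts to 4 for arsenite in WT cells and 8 for untreated KO against WT, the random block to 4 in WT cells, and the other member counts stayed within 1.5 times. From the arrays of the compared groups alone 1274 probe sets and 3 members passed in KO cells, and 1196 probe sets and 5 members in WT cells. Median centring left 1 member and 952 of all probe sets in WT cells, and 4 probe sets for the difference of responses. Trended robust moderation left 0 members and 934 of all probe sets in WT cells (6 and 5412 at an unadjusted p under 0.05). At an adjusted p under 0.01, 1500, 406, 1, 4164 and 4487 probe sets passed in the order above, with 0 members in WT cells. Gene-level settings count genes out of 20753, and 5 members, so they are smaller by construction. With the brightest probe set per gene 1566, 441, 4181 and 4370 genes passed for arsenite in KO cells, arsenite in WT cells, untreated KO against WT and KO against WT under arsenite, and with the mean over probe sets 1484, 426, 4132 and 4184, and 4 for the difference of responses. Both settings gave 3, 1, 2 and 2 member genes in the 4 comparisons.

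The labelled matrix, whose columns disagree with the full table, gave 0 calls, members included, in all 5 comparisons by limma, with 38 to 74 of its 26323 probe sets that are not controls, and 0 of the 9 members it holds, at an unadjusted p under 0.05. There the arsenite difference in KO cells was -0.592 for Hspb8 1417013_at, -0.142 for 1417014_at and -0.029 for Hspb2, and that in WT cells -0.430 for Cryab 1416455_a_at. The difference of responses was -0.392 and -0.518 for the 2 Hspb1 sets, -0.512 for Bag3, and -1.064 and -0.292 for Hspb8 1417013_at and 1456434_x_at. KO less WT was 0.094 and 0.161 untreated and -0.297 and -0.357 under arsenite for the 2 Hspb1 sets, and -0.191 under arsenite for Bag3. Quantile normalisation again gave -0.002 for Cryab 1434369_a_at in KO cells under arsenite and -0.025 for the difference of responses of 1435837_at.

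Leaving out 1 array or 1 experiment gave 495 to 3966 probe sets and 0 to 6 members for arsenite in KO cells, 130 to 1066 and 0 to 4 in WT cells, 0 to 118 and 0 to 0 for the difference of responses, 3637 to 7605 and 4 to 7 for untreated KO against WT, and 3838 to 7855 and 5 to 6 under arsenite. Values that turned sign ran, for arsenite in KO cells, from -0.140 to 0.162 for Cryab 1434369_a_at, -0.062 to 0.434 for 1416455_a_at, -0.053 to 0.240 for 1435837_at and -0.058 to 0.133 for Hspb2. In WT cells these were -0.500 to 0.125, -0.270 to 0.347 and -0.017 to 0.267 for the same Cryab sets. For the difference of responses they were -0.090 to 0.535, -0.154 to 0.464 and -0.276 to 0.249 for the Cryab sets, and -0.023 to 0.158 and -0.433 to 0.085 for Hspb8 1456434_x_at and 1417014_at. Untreated KO less WT ran from -0.050 to 0.184 for Bag3 and -0.060 to 0.262 for Cryab 1435837_at, and under arsenite from -0.066 to 0.251 for 1435837_at, and -0.104 to 0.604 and -0.031 to 0.747 for the 2 Hspb1 sets. The causes were not tested.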
